A study of Mus musculus with 9 samples.

Results

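The 35 genes described here are markers of the cardiac endothelium and of lymphatic vessels, chosen as a fixed list of symbols and looked up in a table of 38293 genes. All 35 matched a single gene identifier. They were measured by poly(A)-selected RNA-Seq in ventricles of mice at postnatal day 7 (P7), in 5 Arid1a f/f control libraries and 4 aMHC-Cre;Arid1a f/f cKO libraries. Every animal of both groups carried the floxed Arid1a alleles, and the cKO animals carried in addition a Cre transgene under the alpha myosin heavy chain promoter, which is active in cardiomyocytes. Arid1a encodes a DNA-binding component of SWI/SNF, a complex that remodels chromatin, and the comparison asks how its loss from cardiomyocytes alters expression in the neonatal heart. The deletion is directed at cardiomyocytes while the markers below belong to neighboring vascular cells of the same tissue. Littermates served as controls, and the labels number the libraries within each group without naming a litter.

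Endothelial cells line the chambers of the heart and all of its vessels. Their identity is held by transcription factors of the ETS family, such as Erg, and of the SoxF family, formed by Sox7, Sox17 and Sox18. They sense growth factors through the VEGF receptors Flt1, Kdr and Flt4, the angiopoietin receptor Tek with its relative Tie1, and the apelin receptor Aplnr. Adjacent cells adhere through Cdh5, Pecam1, Esam and Cldn5. Capillaries supply the working muscle with fatty acids and oxygen, while lymphatic vessels, marked by Prox1, Flt4 and Lyve1, drain the tissue.

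Total counts per library lay between 31011055 and 40073801. The lowest count of any of the 35 genes in any library was 184. Arid1a itself was at 128.0 to 148.1 CPM in controls and at 100.3 to 112.9 CPM in cKO, where CPM is the read count of a gene scaled to a fixed library total by the TMM method. The libraries also formed a pair of sets that the labels do not name. The ribosomal protein gene copy Rps3a3 stood at 0.345 to 0.521 CPM in control replicates 1 and 2 and cKO replicates 1 to 3 (the Rps3a3-low set) and at 99.7 to 112.3 CPM in control replicates 3 to 5 and cKO replicate 4 (the Rps3a3-high set). Its relative Rps3a1 went the other way, at 253.1 to 275.6 CPM in the Rps3a3-low set and 70.8 to 75.7 CPM in the Rps3a3-high set. The source of this split was not tested. No batch is given in the labels, and of the cKO libraries 1 belongs to the Rps3a3-high set. The summed level of 8 cardiomyocyte markers was 54080 to 61920 CPM in controls and 48250 to 51540 CPM in cKO, and that of 8 fibroblast markers was 6923 to 8213 CPM in controls and 8559 to 9507 CPM in cKO, without overlap in either case. The sums did not shift evenly. At an adjusted p under 0.05 by edgeR, 2 of the 8 cardiomyocyte markers were lower and 4 of the 8 fibroblast markers higher. The cardiomyocyte marker Actn2 (log2 change 0.225) and the fibroblast marker Dcn (-0.045) lay in the other direction. Since CPM is a share of all counts, the part of the shifts of these sums in the values below was not tested. In whole ventricles, fewer cells of a type and less RNA per cell cannot be told apart.

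The markers spanned a wide range of levels. Per kilobase of annotated exon, the highest control levels among the 35 genes belonged to Fabp4, a fatty acid binding protein of capillary endothelium, at 146.1 ± 16.1 CPM per kb (SD, n = 5), and to the adherens junction cadherin Cdh5 at 113.1 ± 6.29. The ranges of these genes did not overlap each other. Next came the water channel Aqp1 at 74.5 ± 11.3 and Aplnr at 74.4 ± 7.76 CPM per kb, which overlapped, and then Pecam1 at 48.5 ± 0.819 CPM per kb. From Pecam1 down to Clec14a at 10.1 ± 1.38 CPM per kb, each gene overlapped the next in order. Flt1 followed at 8.39 ± 0.276 CPM per kb, clear of both its neighbors. The lowest control levels were those of Flt4 (4.35 ± 0.162), the diaphragm protein Plvap (4.35 ± 0.903), Sox17 (3.51 ± 0.177), the hyaluronan receptor Lyve1 (3.42 ± 0.644) and von Willebrand factor, Vwf (2.85 ± 0.545 CPM per kb), and each of these 5 overlapped its neighbor.

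**Figure D1:**
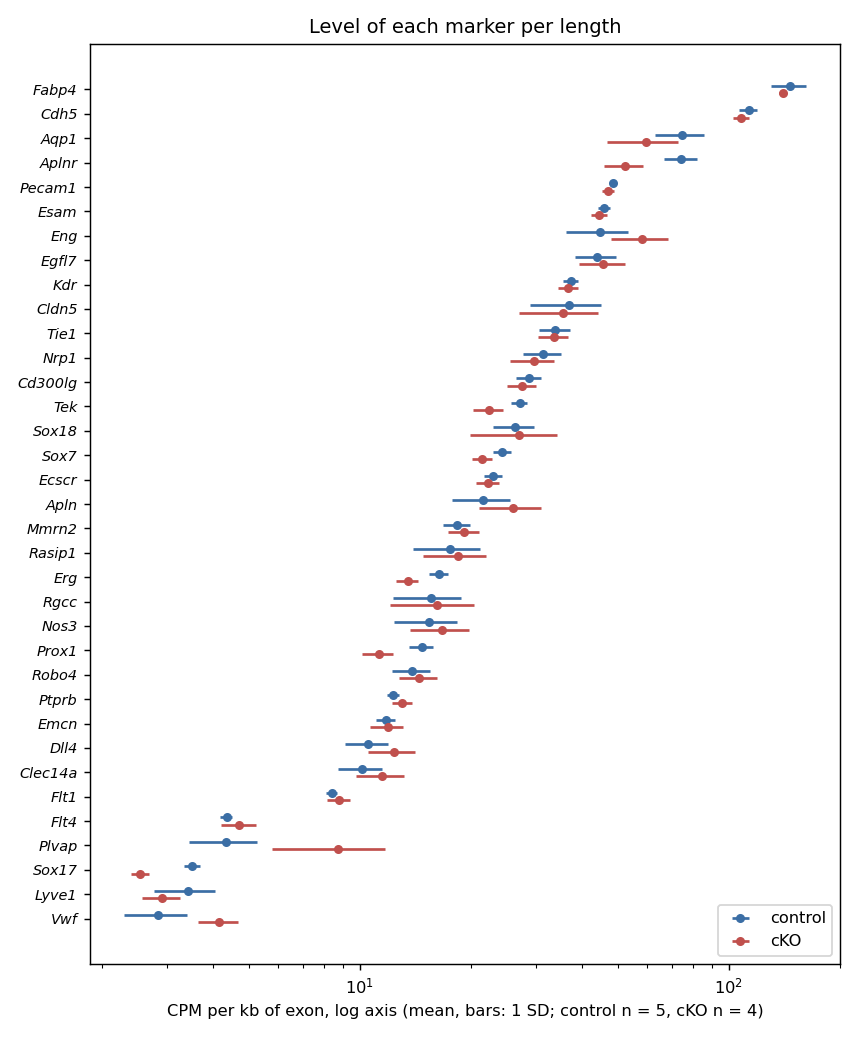
Level of each of the 35 markers per kilobase of annotated exon, on a log axis, as the mean of 5 control and 4 cKO libraries with bars of 1 SD. Genes are ordered by the control mean, from Fabp4 at 146.1 CPM per kb to Vwf at 2.85; Plvap and Vwf lie higher in cKO, while Aplnr, Tek, Erg, Prox1 and Sox17 lie lower.

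To compare the groups, all 15318 genes with sufficient counts were tested together by quasi-likelihood in edgeR, with p-values adjusted over all of them. Changes and differences below are log2 values of cKO over control unless another unit is given. All 35 markers were among the tested genes. Of these, 7 passed an adjusted p of 0.05 (20%), against 16.3% of all genes tested. Higher in cKO were 2, Plvap and Vwf (5.71%, against 8.25% of all genes), and lower were 5, Aplnr, Sox17, Prox1, Erg and Tek (14.3%, against 8.03% of all genes). Only Plvap also changed by more than 1.5-fold (2.86%, against 6.72% of all genes, or 4.01% for higher and 2.72% for lower genes, with 0 lower markers). The share of markers that passed was thus near the share of all genes. Counts by role below stand against the same 8.25% higher and 8.03% lower, and no role was tested as a set. The log2 fold changes of the markers had a median of -0.01 and a median size of 0.08, where all tested genes had a median of 0.01 and a median size of 0.17. For 19 of the 35 markers, and 4876 of all 15318 genes, the change was smaller than 0.1 on the log2 scale.

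The groups did not overlap for 8 markers, which were the 7 above and Sox7 (22.9%, against 16.7% of all genes). Of these, 2 were higher in cKO (5.71%, against 8.16%) and 6 lower (17.1%, against 8.58%). Without overlap between the groups, the sign within each library set is fixed, so it adds no support for these 8. In a fit to the 5 Rps3a3-low libraries, 0 of the 7 passed and their adjusted p ran from 0.0786 to 0.37 by edgeR, while 849 of all genes passed in that fit against 2493 with all libraries. With the replicate number added to the model as a block, Plvap, Tek and Erg no longer passed.

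**Figure D2:**
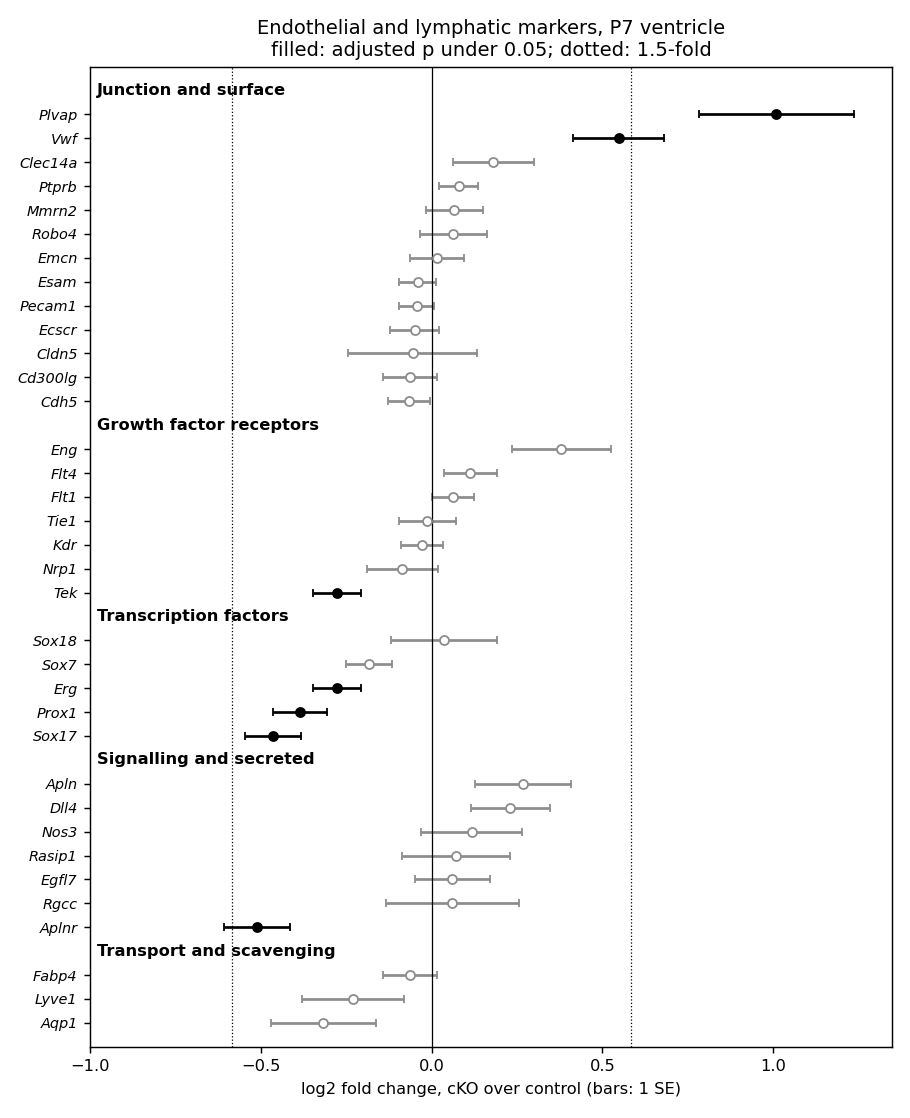
Log2 fold change of cKO over control for the 35 markers, grouped by role, with bars of 1 SE from edgeR. Filled points passed an adjusted p of 0.05 and dotted lines mark a change of 1.5-fold; Plvap at 1.01 is the one marker beyond them, and Aplnr at -0.51 the lowest.

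A score was formed for each library as the median, over the 35 markers, of the log2 CPM less the average of that gene in all 9 libraries. It was 0.09, 0.08, -0.03, -0.04 and -0.03 across controls 1 to 5, whereas cKO 1 to 4 had -0.06, 0.03, 0.04 and -0.10. The groups overlapped, with means of 0.01 ± 0.07 (SD, n = 5) and -0.02 ± 0.07 (SD, n = 4), a difference of less than the spread within a group. The summed level of 10 pan-endothelial genes (Pecam1, Cdh5, Tie1, Tek, Esam, Erg, Egfl7, Emcn, Clec14a and Robo4) was 1676, 1650, 1528, 1570 and 1572 CPM across controls 1 to 5 and 1514, 1613, 1599 and 1467 CPM across cKO 1 to 4. Its means of 1599 ± 61.5 CPM and 1548 ± 69.3 CPM likewise overlapped in range. Of these 10 genes 0 rose and 2, Erg and Tek, fell (against 8.25% and 8.03% of all genes tested).

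Among the 13 junction and surface markers, 2 rose and 11 did not pass. Plvap (ENSMUSG00000034845, GRCm38 chromosome 8, 71497765 to 71511752), which encodes the protein of the diaphragms that span endothelial fenestrae and caveolae, was at 10.7, 8.69, 9.20, 5.79 and 8.80 CPM across controls 1 to 5. Across cKO 1 to 4 it was at 11.4, 23.8, 13.5 and 20.9 CPM. Every cKO library lay above every control library, cKO replicate 1 by a narrow margin, and the cKO libraries differed from each other more than the controls did. In edgeR, cKO over control gave 1.01 on the log2 scale (SE 0.23, adjusted p = 0.0116), and within the library sets the difference was 0.65 (Rps3a3-low) and 1.37 (Rps3a3-high). The gene overlaps Gtpbp3 on the opposite strand, which was at a mean of 15.9 CPM, and the strand setting of the counting is not stated.

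Vwf (ENSMUSG00000001930, chromosome 6, 125546774 to 125686679), the platelet-binding glycoprotein stored in endothelial granules, was at 57.0, 52.7, 36.1, 41.4 and 41.4 CPM across controls 1 to 5 and at 61.0, 75.0, 58.5 and 72.8 CPM across cKO 1 to 4. The groups did not overlap, although control replicate 1 came close to the lowest cKO library. On the log2 scale the difference fitted by edgeR was 0.55 (SE 0.13, adjusted p = 0.0156), just under 1.5-fold, and without cKO replicate 2 it was 0.49 with an adjusted p of 0.0511. Within the Rps3a3-low set the difference was 0.23 and within the Rps3a3-high set 0.87. Vwf is made by megakaryocytes too. The summed level of 5 platelet markers was 7.95 to 13.3 CPM in controls and 10.7 to 12.7 CPM in cKO, and 0 of the 4 that were tested passed in edgeR, with a median log2 difference of 0.39. The 1 at an unadjusted p under 0.05, named after its values were seen, was the megakaryocyte integrin Itga2b, at 1.45 to 2.83 CPM in controls and 2.89 to 3.20 CPM in cKO, a difference of 0.59 in the direction of Vwf. The part of platelets and megakaryocytes in the Vwf result was not tested.

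The other 11 surface markers lay within 0.2 of no change. Pecam1, the platelet and endothelial cell adhesion molecule, was at 296.0 to 308.0 CPM in controls and 281.6 to 305.6 CPM in cKO, with -0.04 as log2 fold change (SE 0.05, adjusted p = 0.611 by edgeR). It varied least of these genes among the controls. Cdh5 was at 435.8 to 500.5 and 434.5 to 483.6 CPM, with -0.07 (SE 0.06, adjusted p = 0.509). The tight junction gene Cldn5 ranged more widely, from 39.6 to 63.8 CPM in controls and from 36.5 to 65.9 CPM in cKO, so that its change of -0.06 carried an SE of 0.19. Log2 fold changes of the remaining 8 were 0.18 for the lectin-like receptor Clec14a, 0.08 for the receptor phosphatase Ptprb, 0.07 for Mmrn2, which binds Clec14a in the matrix, 0.06 for the guidance receptor Robo4, 0.02 for the sialomucin Emcn, -0.04 for the junction protein Esam, -0.05 for Ecscr and -0.06 for Cd300lg. In none of these 8 did the groups separate.

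Of the 7 growth factor receptors, Tek fell and the others did not pass. Tek (ENSMUSG00000006386, chromosome 4, 94739289 to 94874976), the tyrosine kinase receptor of the angiopoietins, was at 116.8, 129.5, 128.3, 129.7 and 133.9 CPM across controls 1 to 5 and at 111.1, 91.4, 112.4 and 106.3 CPM across cKO 1 to 4. Controls were all higher, with cKO replicate 2 the lowest library. The fitted log2 change in edgeR came to -0.28 (SE 0.07, adjusted p = 0.0193), with differences of -0.23 and -0.30 in the Rps3a3-low set and the Rps3a3-high set, respectively. Its relative Tie1, by contrast, was at 150.3 to 188.2 CPM in controls and 153.9 to 187.3 CPM in cKO, with a change of -0.01 (SE 0.08, adjusted p = 0.934).

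The VEGF receptors were close to level. Kdr, the main signaling receptor for VEGF-A, had a change of -0.03 (SE 0.06, adjusted p = 0.805 by edgeR), with 337.0 ± 15.9 CPM (SD, n = 5) in controls and 330.6 ± 20.6 CPM in cKO (SD, n = 4). Flt1, which also occurs as a soluble decoy, was at 0.06 (SE 0.06) and Flt4, the receptor of lymphatic growth factors, at 0.11 (SE 0.08) on the log2 scale. The co-receptor Nrp1, which fibroblasts and mural cells also express, was at -0.09 (SE 0.10). Eng, an endothelial co-receptor for BMP and TGF-beta ligands, was at 231.0, 202.5, 157.3, 157.3 and 157.0 CPM across controls 1 to 5 and at 192.1, 290.0, 222.6 and 237.2 CPM across cKO 1 to 4. The groups overlapped through control replicates 1 and 2, and the change of 0.38 (SE 0.14) had an adjusted p of 0.102 by edgeR. Without control replicate 1, Eng passed, with 0.48 and an adjusted p of 0.027, and without cKO replicate 2 it was 0.26 with an adjusted p of 0.276. Within the Rps3a3-low set its difference was 0.10 and within the Rps3a3-high set 0.59. Eng overlaps Fpgs, at 13.1 CPM, on the opposite strand.

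Of the 5 transcription factors 0 rose and 3 fell (against 8.25% and 8.03% of all genes tested), in a group too small to compare with these shares. Sox17 (ENSMUSG00000025902, chromosome 1, 4490931 to 4497354), a SoxF factor of arterial endothelium and endocardium, was at 17.1, 16.9, 17.9, 15.7 and 16.1 CPM across controls 1 to 5 and at 12.7, 12.7, 11.3 and 11.8 CPM across cKO 1 to 4. Both groups were tight and well apart. The fitted log2 change in edgeR of -0.46 (SE 0.08, adjusted p = 0.0022) was nearly the same within the Rps3a3-low set (-0.46) and the Rps3a3-high set (-0.47), and the adjusted p stayed between 0.00391 and 0.011 when any 1 library was left out.

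Its SoxF relatives did not pass in edgeR. Sox7 (ENSMUSG00000063060, chromosome 14, 63943673 to 63950732) was at 76.2, 84.5, 77.1, 85.6 and 78.1 CPM across controls 1 to 5 and at 74.4, 71.6, 72.8 and 64.2 CPM across cKO 1 to 4. The groups did not overlap, but the change of -0.18 (SE 0.07) had an adjusted p of 0.0855 by edgeR. Sox7 passed by DESeq2 (adjusted p = 0.049) and when the library set was added to the edgeR model (adjusted p = 0.0437). Sox18 was at 36.8 to 48.6 CPM in controls and 35.2 to 60.8 CPM in cKO, with 0.04 (SE 0.15, adjusted p = 0.9). Whether the changes of the SoxF genes differ from one another was not tested.

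Prox1 (ENSMUSG00000010175, chromosome 1, 190118035 to 190170714), the homeobox factor that specifies lymphatic endothelium and is also expressed by cardiomyocytes, was at 112.9, 113.6, 130.1, 132.6 and 127.3 CPM across controls 1 to 5 and at 106.2, 84.2, 94.3 and 92.5 CPM across cKO 1 to 4. Each cKO library was lower than each control library, and the Rps3a3-high controls were higher than the other controls. In edgeR, cKO over control gave -0.39 on the log2 scale (SE 0.08, adjusted p = 0.00566), with -0.26 and -0.49 in the Rps3a3-low set and the Rps3a3-high set, respectively. The part of the cardiomyocyte markers, which summed lower in cKO, was not tested in this result. Its antisense gene Prox1os, on the opposite strand, was at 2.31 CPM. Erg (ENSMUSG00000040732, chromosome 16, 95359169 to 95586593), the ETS factor that maintains junction genes, was at 56.2, 51.6, 56.7, 58.7 and 60.2 CPM across controls 1 to 5 and at 49.2, 42.9, 49.6 and 45.2 CPM across cKO 1 to 4. Control replicate 2 came close to the cKO libraries without reaching them. Erg changed by -0.28 (SE 0.07, adjusted p = 0.018 by edgeR), and without cKO replicate 4 the adjusted p was 0.0518. Within the Rps3a3-low set the difference was -0.19 and within the Rps3a3-high set -0.37.

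**Figure D3:**
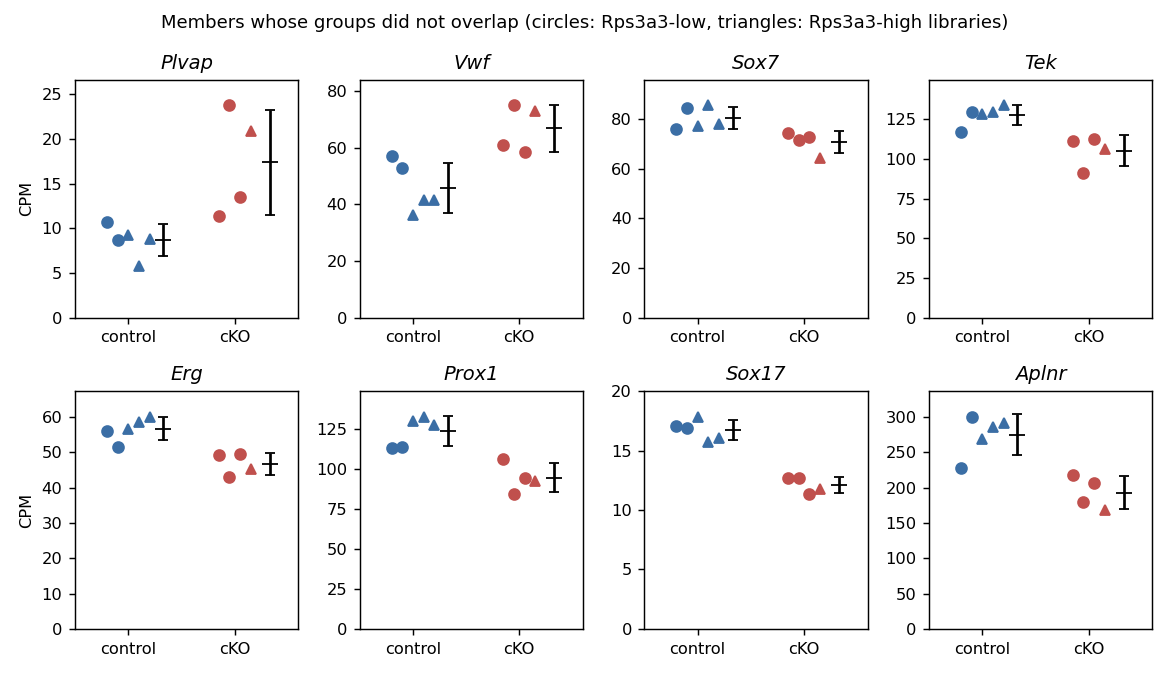
CPM in each library for the 8 markers whose groups did not overlap, with control in blue, cKO in red, circles for the Rps3a3-low and triangles for the Rps3a3-high set, and black bars for the mean and 1 SD. Axes start at 0; Plvap and Vwf are higher in cKO, and the other 6 are lower, Sox17 with the tightest groups.

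Promoter windows of 300 bases, from 250 before to 50 after a transcript start, were available from RefSeq (GRCm38.p6) for 19 of the 35 markers. They are shown for Tek and Erg, which fell, and for Eng and Flt1 as examples of windows with the ETS letters, chosen after the matches were seen. For a gene with several windows, the one whose start is shared by the most GENCODE M21 transcripts, within 10 bases, was read, and the most upstream one where this did not decide, so that each marker counts once. Capitals mark the ETS core in the forms CGGAAG and AGGAAG, the SOX letters ACAATG, the FOX letters TAAACA and the TEAD letters GGAATG, each searched on both strands, and no member of this set contains another.
Tek, chr4:94739039-94739338, plus strand: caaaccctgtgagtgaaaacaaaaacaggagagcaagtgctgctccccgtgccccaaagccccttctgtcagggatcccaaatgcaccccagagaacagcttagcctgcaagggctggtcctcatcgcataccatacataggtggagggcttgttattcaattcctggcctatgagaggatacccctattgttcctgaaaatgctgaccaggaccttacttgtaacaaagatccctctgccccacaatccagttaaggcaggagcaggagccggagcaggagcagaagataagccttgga
Erg, chr16:95530316-95530615, minus strand: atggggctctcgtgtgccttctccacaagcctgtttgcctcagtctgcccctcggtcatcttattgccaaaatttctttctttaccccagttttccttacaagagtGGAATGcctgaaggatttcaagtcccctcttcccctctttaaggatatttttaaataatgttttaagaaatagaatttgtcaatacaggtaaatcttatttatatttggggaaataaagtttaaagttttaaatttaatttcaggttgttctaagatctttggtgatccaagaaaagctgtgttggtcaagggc
Eng, chr2:32646345-32646644, plus strand: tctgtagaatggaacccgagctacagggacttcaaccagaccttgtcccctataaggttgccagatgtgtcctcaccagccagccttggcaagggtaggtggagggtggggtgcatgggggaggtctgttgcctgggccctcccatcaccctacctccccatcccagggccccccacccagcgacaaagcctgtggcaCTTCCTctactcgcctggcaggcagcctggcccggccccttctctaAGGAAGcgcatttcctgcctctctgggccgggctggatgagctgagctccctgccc
Flt1, chr5:147725962-147726261, minus strand: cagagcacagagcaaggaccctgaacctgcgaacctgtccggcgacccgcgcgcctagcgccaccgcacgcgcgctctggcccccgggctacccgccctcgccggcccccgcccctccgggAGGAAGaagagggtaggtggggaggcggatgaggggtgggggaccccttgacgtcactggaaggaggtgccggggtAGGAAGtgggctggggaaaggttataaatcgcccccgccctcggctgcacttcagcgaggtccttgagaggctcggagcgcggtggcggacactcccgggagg
The Eng and Flt1 windows each held AGGAAG at 2 places, the Erg window held GGAATG once, and the Tek window held none of the motifs. Windows not read this way also held matches: of the others of Erg, one had the ETS letters with A and the SOX and FOX letters and one the TEAD letters, and another one of Prox1, neither of whose windows lies at a GENCODE start, had the FOX letters. For Egfl7, a pair of windows tied, and the upstream one that was read held the ETS letters with A while the other did not, and a further one, not at a GENCODE start, held them at 3 places. Among the 19 markers, AGGAAG stood in the windows of 11 (57.9%), against 35.4% of all 32851 RefSeq windows, and CGGAAG in 1 (5.26%, against 16.9%). GGAATG was found in 3 (15.8%, against 14.7%), TAAACA in 1 (5.26%, against 13.4%) and ACAATG in 0 (against 12.6%). These are matches of letters in a short window and do not mark bound sites.

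The 7 signaling and secreted markers included 1 that fell. Aplnr (ENSMUSG00000044338, chromosome 2, 85136225 to 85139923), the G protein coupled receptor of apelin, was at 228.3, 300.8, 268.5, 286.5 and 291.4 CPM across controls 1 to 5 and at 218.6, 179.3, 206.0 and 168.4 CPM across cKO 1 to 4. All cKO libraries were lower than the controls, with control replicate 1 the nearest to them. On the log2 scale the difference fitted by edgeR was -0.51 (SE 0.10, adjusted p = 0.00369), and the differences within the sets were -0.39 (Rps3a3-low) and -0.74 (Rps3a3-high). The ligand Apln, which tip cells of growing vessels produce, was at 89.4, 61.9, 66.7, 61.8 and 60.4 CPM across controls 1 to 5 and at 69.0, 104.1, 74.2 and 80.1 CPM across cKO 1 to 4. Apart from control replicate 1 the controls lay below every cKO library, and its change of 0.27 (SE 0.14) did not pass (adjusted p = 0.235 by edgeR). Without control replicate 1 it passed, with 0.39 and an adjusted p of 0.0414, and without cKO replicate 2 it was 0.13 with an adjusted p of 0.579. The second ligand gene of this receptor, Apela, had 0 counts in all 9 libraries, which allows a level of up to 0.097 CPM in a library (3 counts).

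The Notch ligand Dll4, which restrains sprouting, had a difference of 0.23 (SE 0.11, adjusted p = 0.203 by edgeR), with 40.5 ± 5.46 CPM (SD, n = 5) in controls and 47.5 ± 6.97 CPM in cKO (SD, n = 4). Changes of the other 4 were 0.12 for the endothelial nitric oxide synthase Nos3, 0.07 for the junction regulator Rasip1, 0.06 for the secreted factor Egfl7 and 0.06 for the cell cycle regulator Rgcc, with SE between 0.11 and 0.19. All 4 overlapped between the groups, with Nos3 at 51.5 to 80.1 CPM in controls and 61.3 to 87.5 CPM in cKO.

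None of the 3 transport and scavenging markers passed in edgeR, and 0 of them were at an unadjusted p under 0.05. Fabp4 was at 561.9 to 742.1 CPM in controls and 617.9 to 648.2 CPM in cKO, a change of -0.06 (SE 0.08, adjusted p = 0.641). Adipocytes express Fabp4 as well. The summed level of 6 adipocyte markers was 0 to 0.776 CPM in controls and 0.0795 to 5.82 CPM in cKO, with Lep at 0 counts in every library, Adipoq at most 0.492 CPM and the brown fat gene Ucp1 at 4.92 CPM in cKO replicate 3, the cKO library with the highest Fabp4. Their part in the Fabp4 level was not tested. Aqp1, which red blood cells also carry, was at 169.6 to 246.7 CPM in controls and 108.4 to 186.1 CPM in cKO, with cKO replicate 4 the lowest and a change of -0.32 (SE 0.15, adjusted p = 0.199). When the library set was added to the model, Aqp1 passed, at -0.48 with an adjusted p of 0.00895, but it passed in 0 of 9 leave-one-out fits, and without cKO replicate 4 it was -0.17 with an adjusted p of 0.358. The summed level of 5 erythroid markers was 482.9 to 929.2 CPM in controls and 732.6 to 1135 CPM in cKO, and 0 of them passed in edgeR, with 1, Alas2, at an unadjusted p under 0.05 (named after its values were seen, 0.32 higher in cKO). Lyve1, carried by lymphatic endothelium and by resident macrophages, was at 7.10 to 12.1 CPM in controls and 7.39 to 9.71 CPM in cKO, a change of -0.23 (SE 0.15, adjusted p = 0.332).

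Of the 3 lymphatic markers, Prox1 passed, while Flt4 and Lyve1 did not. Prox1, Flt4 and Lyve1 together summed to 156.7 to 179.7 CPM in controls and 135.1 to 149.7 CPM in cKO, without overlap, and most of this sum was Prox1. Flt4 lay in the other direction (0.11). The median score of these 3 genes was lower in cKO by 0.185 on average (SD 0.094 in controls, 0.133 in cKO). Its ranges overlapped (controls -0.01 to 0.22, cKO -0.21 to 0.08). Of 7 further lymphatic genes that were tested, 1 rose, the forkhead factor Foxc2, and 0 fell. Foxc2, which shapes lymphatic valves, went from 2.83 ± 0.452 CPM (SD, n = 5) in controls to 4.41 ± 0.314 CPM (SD, n = 4) in cKO, with 0.64 as log2 fold change (SE 0.15, adjusted p = 0.0114 by edgeR).

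Each marker was also expressed relative to the summed counts of the 10 pan-endothelial genes in the same library, leaving the marker itself out of the sum. On this scale 3 of the 35 separated the groups, but no share over all genes was formed on it, so the count has no background. The log2 ratio of Plvap was higher in cKO by 1.02 and that of Vwf by 0.61, and that of Sox17 was lower, with a difference of -0.42. Aplnr (-0.46), Prox1 (-0.34), Tek (-0.25) and Erg (-0.24) kept their direction but overlapped between the groups. With the 8 core genes other than Cdh5 and Pecam1 as the reference, again 2 were higher and 1 lower without overlap. Both references include Tek and Erg, which were themselves lower in cKO.

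Several markers varied between libraries of the same group. In the controls, 14 of the 35 were higher in both replicates 1 and 2, of the Rps3a3-low set, than in each of replicates 3 to 5 (40%, against 23.5% of all genes tested), and 3 were lower in both (8.57%, against 23.1%). Rasip1 was 1.43-fold, Cldn5 1.42-fold, Nos3 1.39-fold, Vwf 1.39-fold and Eng 1.38-fold higher in these 2 control libraries. The 3 lower genes were Nrp1, Erg and Prox1, at 0.818, 0.921 and 0.871 of the level in the other controls. In the cKO group, replicate 2 of the same set was the highest library for Eng, Apln, Nos3, Rasip1, Sox18, Plvap and Vwf and the lowest for Tek, Erg and Prox1. Differences between library sets were thus as large as several of the group differences, which is why within-set values are given above.

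**Figure D4:**
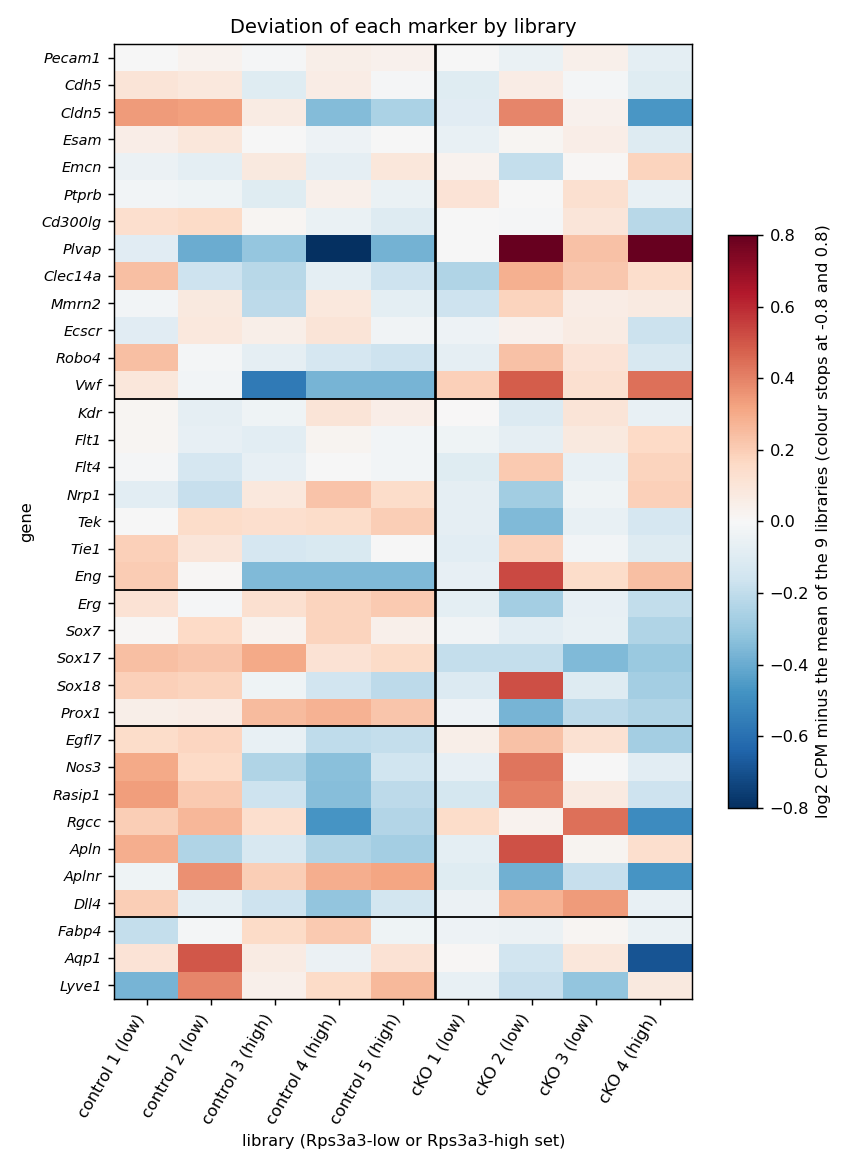
Log2 CPM of each marker relative to its average in all 9 libraries, with genes in rows by role, 5 control and 4 cKO libraries in columns and the library set in brackets; red is above and blue below the mean, with colors saturating at -0.8 and 0.8. Pecam1 and Esam are pale throughout, Sox17 and Prox1 turn from red to blue at the vertical line between the groups, Plvap is blue in every control, and Cldn5, Nos3 and Rasip1 are red in control replicates 1 and 2 and cKO replicate 2.

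Other vascular genes were read from 10 lists of signaling partners and of endothelial subtypes, whose counts stand against 8.25% of all tested genes higher and 8.03% lower in cKO. In the list of VEGF and angiopoietin partners, 2 of 12 rose and 3 fell. The Tek ligand Angpt1, made by cardiomyocytes and mural cells, was at 11.4, 16.3, 18.9, 17.3 and 17.9 CPM across controls 1 to 5 and at 12.4, 6.42, 10.3 and 6.46 CPM across cKO 1 to 4. Control replicate 1 was the one control below a cKO library. The fitted log2 change in edgeR came to -0.88 (SE 0.21, adjusted p = 0.0167), with differences of -0.52 and -1.41 in the Rps3a3-low set and the Rps3a3-high set, respectively. Svep1, a matrix protein needed for lymphatic growth, rose by 0.91 (SE 0.12, adjusted p = 0.000318), and Pgf, a ligand of Flt1, fell by 0.65 (SE 0.20, adjusted p = 0.0392), but did not pass in 7 of 9 leave-one-out fits and differed by -0.46 in the low and -0.98 in the high set. The adaptor Shb (higher) and Plcg1 (lower) passed as well and are named after their values were seen. Shb overlapped between the groups, differed by 0.30 in the low and 0.52 in the high set, and passed in 2 of 9 leave-one-out fits. Vegfa, the main ligand of Kdr and likewise named after its values were seen, was at 350.5 ± 27.9 CPM in controls and 323.1 ± 13.5 CPM in cKO, a change of -0.12 (SE 0.07, adjusted p = 0.276).

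Among 18 tested partners of the Notch, BMP and apelin pathways, 2 rose and 2 fell. The Notch effector Hes1 fell from 34.0 ± 1.79 CPM to 26.9 ± 1.09 CPM (log2 change -0.34, SE 0.06, adjusted p = 0.00387 by edgeR), whereas Heyl, which mural cells express strongly, rose by 0.26 (SE 0.05, adjusted p = 0.00572). Tmem100, a BMP-dependent gene of arterial endothelium and endocardium, fell by 0.76 (SE 0.17, adjusted p = 0.0101). Nrarp, named after its values were seen, rose, and passed in 2 of 9 leave-one-out fits.

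Of 19 further endothelial transcription factors, 2 rose and 1 fell. Besides Foxc2, Foxc1 rose by 0.45 (SE 0.13, adjusted p = 0.0332 by edgeR), and the ETS factor Fli1, the closest relative of Erg, fell by 0.32 (SE 0.09, adjusted p = 0.0388). Within the library sets, low before high, Foxc1 differed by 0.68 and 0.17. Fli1 passed in 2 and Foxc1 in 4 of 9 leave-one-out fits. Of 17 barrier and Rap1 partners, Unc5b, a guidance receptor, rose by 0.56 (SE 0.12, adjusted p = 0.0097), Jam2 rose by 0.50 (SE 0.14, adjusted p = 0.0366), with differences of 0.58 and 0.03 in the Rps3a3-low set and the Rps3a3-high set, respectively, and the sphingosine phosphate receptor S1pr1 fell by 0.24 (SE 0.06, adjusted p = 0.0218). Unc5b differed by 0.46 in the Rps3a3-low and by 0.74 in the other set. Jam2 passed in 2 and S1pr1 in 6 of those 9 fits.

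Capillary, arterial and venous endothelium were read from lists of their own. Of 13 capillary genes 0 rose and 3 fell (against 8.25% and 8.03% of all genes tested), Timp4 by 0.94 (SE 0.22, adjusted p = 0.0135 by edgeR), the carbonic anhydrase Car4 by 0.41 (SE 0.12, adjusted p = 0.0311) and the cadherin Cdh13 by 0.29 (SE 0.07, adjusted p = 0.0109). Each differed less in the Rps3a3-low than in the Rps3a3-high set, Timp4 by -0.47 against -1.25, Car4 by -0.33 against -0.70 and Cdh13 by -0.28 against -0.44. Car4 passed in 4 of 9 leave-one-out fits. Timp4, at 4.13 CPM in controls and 2.16 CPM in cKO, overlaps Syn2 on the opposite strand, which was at a mean of 4.5 CPM. Of 10 arterial genes 2 rose, both of them matrix genes that smooth muscle cells or fibroblasts also make. Mgp, an inhibitor of calcification, went from 56.4 ± 6.81 CPM to 125.6 ± 11.4 CPM (log2 change 1.16, SE 0.09, adjusted p = 7.7e-06 by edgeR), and the elastic fiber protein Fbln5 rose by 0.52 (SE 0.07, adjusted p = 0.00037). Of 5 venous genes 1 fell, the adhesion molecule Vcam1, at -0.31 (SE 0.09, adjusted p = 0.0414), which passed in 2 of 9 leave-one-out fits and differed by -0.19 in the low and -0.36 in the high set.

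In the tip cell list, 1 of 10 genes rose. Esm1, a proteoglycan secreted by tip cells, was at 2.17, 0.724, 2.05, 2.08 and 2.17 CPM across controls 1 to 5 and at 4.01, 4.85, 4.84 and 6.27 CPM across cKO 1 to 4. The groups did not overlap and control replicate 2 was far below the other controls. In edgeR, cKO over control gave 1.44 on the log2 scale (SE 0.27, adjusted p = 0.00349), with differences of 1.48 and 1.38 within the library sets.

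Of 7 endocardial genes, 5 rose and 0 fell (against 8.25% and 8.03% of all genes tested), with a median log2 fold change of 0.41, where all tested genes had 0.01. Sox17 and Tmem100, given above as genes of endocardium too, were not on this list and fell. The natriuretic peptide clearance receptor Npr3 rose by 0.49 (SE 0.13, adjusted p = 0.0224 by edgeR), and Cdh11 by 0.41 (SE 0.12, adjusted p = 0.0395), beside Foxc1 as given above. The neuregulin gene Nrg1, at 0.399 ± 0.151 CPM in controls and 1.44 ± 0.851 CPM in cKO, rose by 1.86 (SE 0.44, adjusted p = 0.0127), and Cgnl1 rose by 0.26 (SE 0.06, adjusted p = 0.0143); both are named after their values were seen. Nrg1 overlapped between the groups, since cKO replicate 1 at 0.467 CPM lay within the control range of 0.174 to 0.582 CPM, and leaving out 1 library gave 1.44 to 2.15. The summed level of the list was 198.7 to 254.2 CPM in controls and 265.4 to 290.2 CPM in cKO. Plvap, which endocardium and veins carry more than heart capillaries do, rose in the same libraries, and the part of endocardial cells in its change was not tested. Cdh11 and Foxc1 are expressed by fibroblasts too, whose markers summed higher in cKO, with 4 of 8 higher in edgeR. Cdh11 differed by 0.67 in the low and 0.35 in the high set, and Nrg1 by 0.91 and 1.68. Cdh11 passed in 1 and Npr3 in 7 of 9 leave-one-out fits.

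**Figure D5:**
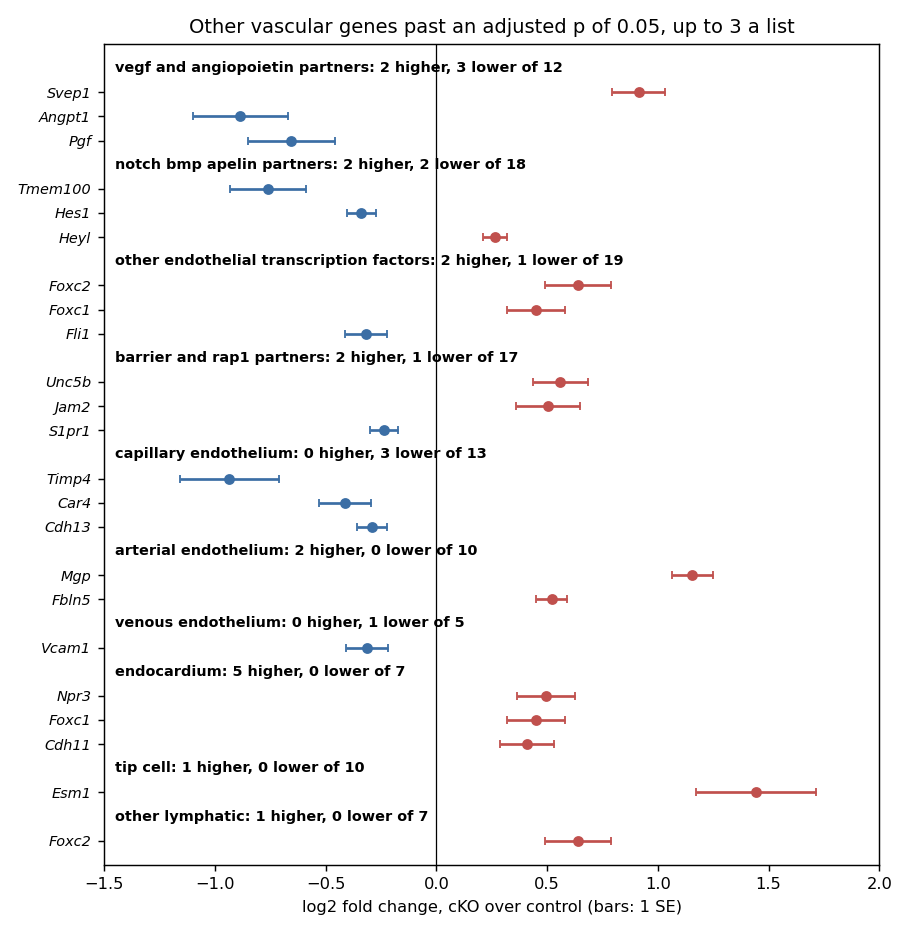
Log2 fold change of cKO over control, with bars of 1 SE, for the genes of 10 vascular lists past an adjusted p of 0.05, up to 3 a list with a mean of at least 1 CPM, and beside each list the number higher and lower among its tested genes. Red points are higher and blue points lower in cKO; Esm1 at 1.44 and Timp4 at -0.94 are the extremes.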

How the data were processed

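Ventricular RNA of 5 Arid1a f/f controls and 4 aMHC-Cre;Arid1a f/f cKO mice at P7 had been extracted with TRIzol, made into TruSeq stranded mRNA libraries, sequenced as single-end reads and mapped to mm10. The deposited values are raw read counts per gene, 1 column per library, which the authors had not normalized; the submitters' processing notes name STAR 2.4.2a and HTSeq 0.6.1, while the annotation and strand setting are not given in the sources used here. The study's text differs in the number of controls between methods and legend, and all libraries labeled as controls were used. The table held 0 other sample columns.

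Symbols, positions and union exon lengths came from GENCODE M21 (GRCm38, the assembly of mm10), in which 36429 identifiers were found. Counts were filtered with filterByExpr (minimum count 10), scaled by TMM and tested in R 4.3.3 with the robust quasi-likelihood F test of edgeR 4.0.16, genotype as the only term, two-sided, with Benjamini-Hochberg adjustment over the 15318 genes tested. SE were obtained by dividing each log2 fold change by the root of its F value. Scores used log2 CPM with a prior count of 2, and differences within library sets used log2(CPM + 0.5). A change was also compared with 1.5-fold. Alternatives were DESeq2 1.42.0 (the study's tool), RLE and upper-quartile scaling, no filter, the replicate number as a block, the library set as a term, the Rps3a3-low set alone (Rps3a3 below 10 CPM), Xist level as a covariate and leaving out each library. The edgeR and DESeq2 scripts were run on simulated counts as a check of the code, from which nothing is drawn here.

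The members, gene lists and tests were chosen with earlier results of these data known. The naming rule covers all 35 markers, with full values for those past an adjusted p of 0.05 or without overlap, and up to 3 genes of each vascular list past 0.05 with a mean of at least 1 CPM. The labels name the libraries as separate samples without stating separate animals for each, so p-values measure the spread between these libraries. Between libraries of a group the mean chi-square per gene was at least 9.51, so no library was a copy of another. Markers of 10 other cell types were read as checks: besides those named in the results, of mural genes 0 of 9 rose and 1, Vtn, fell, of epicardial genes 0 of 5 rose and 1, Wt1, fell, and 0 of 9 macrophage, 0 of 3 tested lymphocyte and 0 of 4 Schwann cell genes passed; adipocyte genes were too low to be tested. Of the 8 cardiomyocyte markers 2 fell, Pln and Myl2. Ccl21a matched more than 1 identifier and was left out. Count-based floors cover counting error only.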

Additional observations from a re-analysis of the deposited data

Results flagged for a closer look

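In 9 of 114 groups of libraries examined, for 35 markers, 21 other named vascular genes and Arid1a, the highest or lowest library stood apart from the rest by Dixon's criterion; chance alone flags about 1 group in 20. Among the markers, control replicate 1 was high for Clec14a (57.2 CPM, others 41.6 to 45.8) and Apln (89.4 CPM, others 60.4 to 66.7), control replicate 2 for Aqp1 (246.7 CPM, others 169.6 to 189.8), and cKO replicate 2 for Sox18 (60.8 CPM, others 35.2 to 39.5) and Nos3 (87.5 CPM, others 61.3 to 64.7). Among the other genes, control replicate 5 was high for Heyl (82.7 CPM, others 80.0 to 80.6), and Foxc2 was high in control replicate 1 (3.61 CPM, others 2.49 to 2.81) and in cKO replicate 2 (4.88 CPM, others 4.21 to 4.29). Esm1 was low in control replicate 2 (0.724 CPM, others 2.05 to 2.17).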

How the results depend on the processing

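With the replicate number as a block, 1 of the 35 markers was higher, 3 were lower and 0 passed both the adjusted p and 1.5-fold; the calls of Plvap (0.98, adjusted p = 0.113 by edgeR), Tek (-0.27, adjusted p = 0.0707) and Erg (-0.26, adjusted p = 0.0531) were lost. Of 21 other named vascular genes 9 did not pass with the block (Angpt1, Tmem100, Foxc2, Foxc1, Fli1, Unc5b, Jam2, Timp4 and Vcam1), and 15 did not pass in the Rps3a3-low libraries, where Svep1, Foxc1, Fbln5, Mgp, Npr3 and Cdh11 passed. Same-numbered control and cKO libraries correlated at 0.02, 0.04, 0.01 and 0.23 in their deviations from the group means. Not every library correlated best with its own number. The deviations also followed the library sets, with control replicates 3 to 5 at 0.35, 0.23 and 0.29 against cKO replicate 4. Whether the numbers pair the samples therefore cannot be told from these values. Within the Rps3a3-low libraries, 849 of all genes passed and 620 also exceeded 1.5-fold, against 2493 and 1030 with all libraries, and 0 markers were higher, 0 lower and 0 past both; that fit holds 5 libraries. Leaving out 1 library gave 1 to 4 markers higher, 1 without cKO replicate 2 and 4 without control replicate 1, 4 to 5 lower, and 1 to 2 past both. DESeq2 gave 2 higher and 6 lower, the added one being Sox7, and the library set as a term 2 higher and 7 lower, with Sox7 and Aqp1 added. The difference of the 35-gene score ranged from -0.06 to -0.004 when 1 library was left out.

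Markers near no change turned direction, none of them passing in either fit, and the cause was not tested. With the library set as a term these were Robo4 (-0.017), Nrp1 (0.019), Sox18 (-0.087), Egfl7 (-0.062), Rasip1 (-0.06) and Rgcc (-0.14). Within the Rps3a3-low libraries they were Ecscr (0.023), Robo4 (-0.022), Kdr (0.028), Nrp1 (0.007), Sox18 (-0.051), Egfl7 (-0.024), Nos3 (-0.094), Rasip1 (-0.14), Rgcc (-0.015) and Fabp4 (0.077). With the block they were Sox18 (-0.044) and Rgcc (-0.008), and with upper-quartile scaling Tie1 (0.001). Leaving out 1 library gave ranges of -0.213 to 0.071 for Cldn5, -0.044 to 0.079 for Emcn, -0.006 to 0.14 for Robo4, -0.067 to 0.002 for Kdr, -0.081 to 0.035 for Tie1, -0.17 to 0.13 for Sox18, -0.008 to 0.15 for Egfl7, -0.018 to 0.216 for Nos3, -0.064 to 0.174 for Rasip1 and -0.09 to 0.21 for Rgcc. Of the single-gene values under the other alternatives, 393 kept direction and side of the threshold, 41 no longer passed and 3 newly passed; when 1 library was left out, 438 kept both, 53 no longer passed and 2 newly passed. The lowest count of a marker in a library was 184. No test was run within the Rps3a3-high set, which holds 1 cKO library.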
